A study of Saccharomyces cerevisiae with 8 samples.

Results

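Ribosome biogenesis and rRNA processing factors of budding yeast (Saccharomyces cerevisiae) were taken by name from gene tables of 4 genotypes in the W303 background. All genes whose standard name was NOP, UTP, RRP, NOC or NSA followed by a number were included, which gave 58 of the 6668 listed genes: 17 NOP, 18 RRP, 18 UTP, 3 NOC and 2 NSA genes. The genotypes were msp1delta, which lacks MSP1, pex19delta, which lacks PEX19, msp1delta pex19delta, which lacks both genes and is also called the double mutant here, and W303 itself, the wild type. MSP1 encodes an AAA ATPase that extracts misplaced tail-anchored proteins from the outer mitochondrial membrane, and PEX19 encodes the receptor and chaperone of peroxisomal membrane proteins. Each genotype was grown on 2% glycerol and 2% ethanol in synthetic complete medium and was sampled once for RNA-seq and once for ribosome-protected fragments (RPF), the short mRNA pieces covered by translating ribosomes. The labels do not state whether a strain was a single clone.

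Ribosomes are built in the nucleolus from a long rRNA precursor. The precursor is cut and chemically modified while many assembly factors bind and leave it. Small nucleolar RNPs (snoRNPs) guide the modifications. The UTP-A, UTP-B and UTP-C complexes and further factors assemble on the front part of the precursor into the 90S particle, from which the small (40S) subunit comes. Another set of factors builds the large (60S) subunit, and the exosome trims rRNA ends and degrades the spacers. In yeast the genes of these factors, called the Ribi regulon, are transcribed together when growth is fast, and many carry the promoter elements PAC and RRPE. By role the 58 factors were 4 snoRNP core proteins, 6 UTP-A, 4 UTP-B and 2 UTP-C subunits, 17 other 90S and 40S factors, 18 factors of the 60S subunit and 7 exosome subunits. All 58 were found in the R64 reference, each with 1 coding exon and without an overlapping annotated gene. Their coding lengths ran from 177 nt (NOP10) to 7482 nt (UTP20). Their median was 1480.5 nt, and that of all genes in the reference 1197 nt.

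Both promoter elements are a feature that the name rule did not use. The core of PAC was searched as CGATGAG and that of RRPE as AAAATTT, on both strands, from 250 nt upstream to 50 nt downstream of the start codon in the R64 reference, which is not the W303 sequence. The 2 cores cannot share bases. PAC was found in 34 of the 58 windows (58.6%), against 7.02% of the 5987 genes with a full window. RRPE was found in 52 (89.7%), against 23.2%, and 30 factors (51.7%) held both, against 4.08%. The 8 stretches below span the closest pair of both elements in genes whose values are described further on. Each is written 5′ to 3′ on the gene's strand, and capitals mark the matches on either strand; a capital run longer than a core holds overlapping matches on both strands.
UTP20: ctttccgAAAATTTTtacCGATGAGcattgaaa (chrII:227445-227477, + strand, 191 to 159 nt before the start codon)
UTP10: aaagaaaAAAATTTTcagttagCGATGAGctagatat (chrX:217396-217432, − strand, 123 to 87 nt before)
UTP14: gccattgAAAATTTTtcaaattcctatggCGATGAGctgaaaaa (chrXIII:82967-83010, + strand, 123 to 80 nt before)
RRP36: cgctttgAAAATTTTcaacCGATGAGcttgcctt (chrXV:851940-851973, − strand, 134 to 101 nt before)
RRP8: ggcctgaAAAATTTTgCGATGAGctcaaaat (chrIV:611969-611999, + strand, 104 to 74 nt before)
NOP2: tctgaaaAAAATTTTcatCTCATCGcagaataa (chrXIV:510391-510423, + strand, 149 to 117 nt before)
NOP12: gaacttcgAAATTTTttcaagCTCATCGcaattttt (chrXV:252766-252801, − strand, 155 to 120 nt before)
NOC2: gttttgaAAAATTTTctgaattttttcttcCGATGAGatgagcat (chrXV:727355-727399, + strand, 157 to 113 nt before)

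In the pair printed for each of these 8 genes RRPE lay farther from the start codon than PAC; NOP2, NOP12 and RRP8 hold further matches in another order. In NOP2 and NOP12 PAC was read on the opposite strand. Over all 58 windows the 36 PAC matches lay at a median of 120 nt and the 119 RRPE matches at a median of 131 nt upstream, close to the 122 and 133 nt of all genes. By role, all 4 UTP-B genes and 5 of the 6 UTP-A genes held both elements. So did 10 of the 18 factors of the 60S subunit and 10 of the 17 other 90S and 40S factors. Of the 7 exosome genes, 2 held PAC and 5 held RRPE, and no gene held both. NOP9 and RRP9 were the 2 factors with neither core in the window. Among factors outside the name rule both elements were found too: 71.4% of 42 further 90S and 40S factors and 60.4% of 53 further 60S factors held both. Of the 137 cytosolic ribosomal protein genes 1 held PAC (0.73%) and 29.9% held RRPE. On the gene's strand alone, 17 factors held both elements, against 2.02% of all genes.

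**Figure D1:**
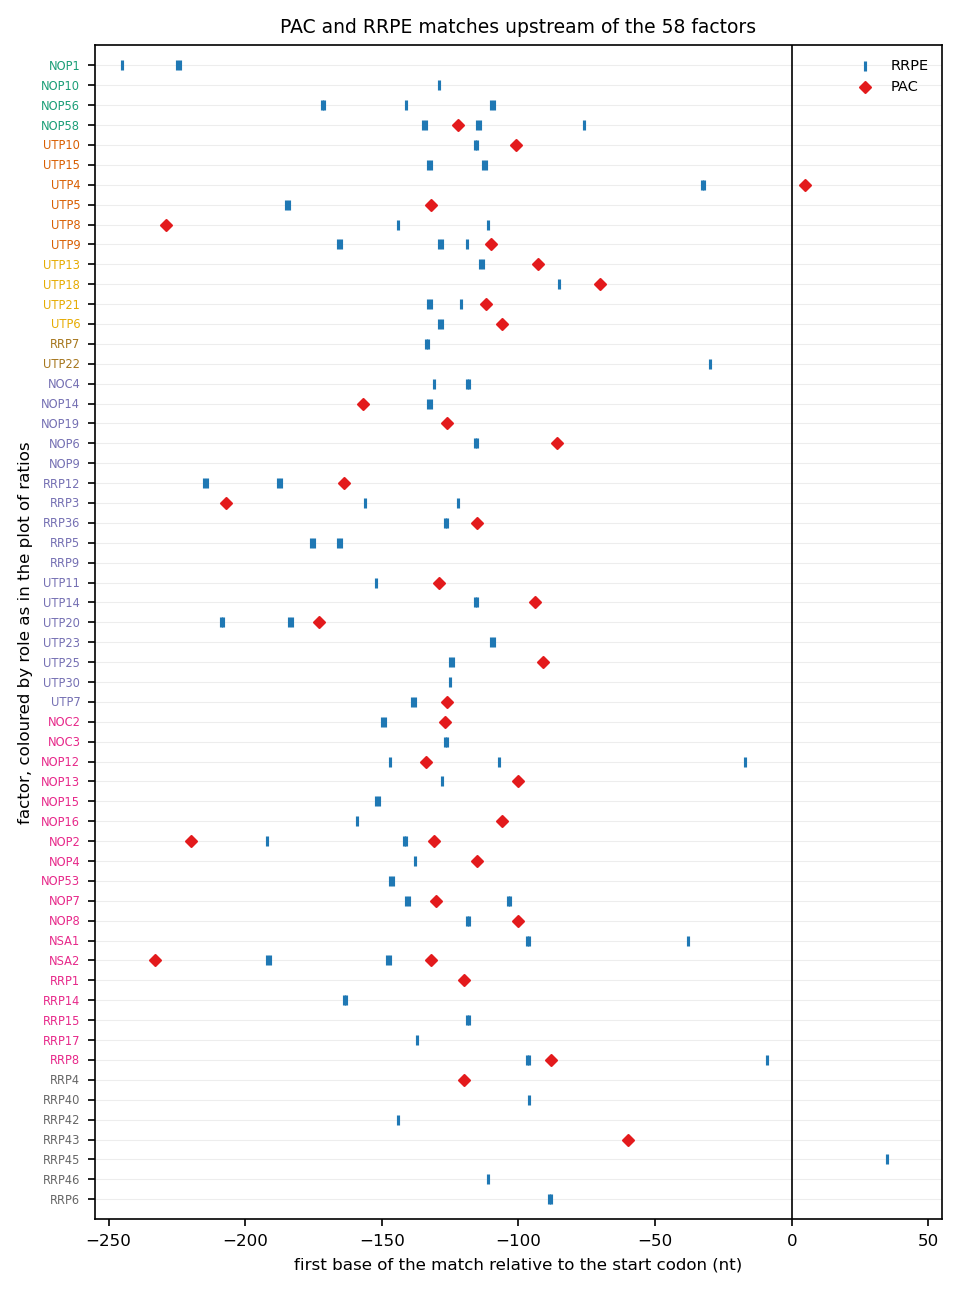
Position of each PAC core (red diamonds) and RRPE core (blue bars) relative to the start codon (0, in nt) for the 58 factors, 1 row per gene, names coloured by role. Of the PAC matches 86.1% and of the RRPE matches 88.2% lay between 50 and 200 nt upstream.

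RNA-seq libraries held 4694951 to 5367091 reads and RPF libraries 1101458 to 2300792, with the lowest RPF total in msp1delta. MSP1 was listed at 1 read in both libraries of msp1delta and of the double mutant and PEX19 at 1 in those of pex19delta and of the double mutant, and 1 is the lowest count that any file lists. With 1 library per genotype and assay no replicate spread could be measured and no difference was tested. A ratio below is the log2 ratio of read counts scaled within the assay, and its 95% interval covers counting error only. Of the 58 factors, 53 had a mean of at least 50 reads in both assays, as did 3737 genes in all. NOP8, UTP6, NOP19, UTP23 and UTP30 fell under that minimum in RPF and are left out of medians and counts. All 58 were detected, and the lowest count in any library was 12.

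In wild type the snoRNP core proteins were the most abundant of the factors on the length-scaled TPM scale. NOP10, the small H/ACA snoRNP protein, had 258.7 TPM in RNA-seq and 497.5 in RPF. NOP1, the fibrillarin methyltransferase of box C/D snoRNPs, had 191.2 and 390.6 TPM, and its box C/D partners NOP56 and NOP58 had 175.8 and 127.9 TPM in RNA-seq. Next in RNA-seq came RRP5, an RNA-binding protein needed for both subunits, at 116.1 TPM, and NOP2, a methyltransferase of the large rRNA, at 100.02 TPM. The lowest level among the 60S factors, and among all 58, was that of NOP8 at 17.6 TPM. Within the other roles the highest and lowest wild-type RNA levels were those of UTP10 (67.8 TPM) and UTP5 (32.2) in UTP-A, UTP13 (43.5) and UTP18 (25.4) in UTP-B, and RRP42 (82.8) and RRP45 (36.8) in the exosome. In UTP-C, RRP7 had 75.3 TPM and UTP22 58.5. Between these subunits of shared complexes the RNA levels thus lay within a few-fold of each other. The RPF levels spread more widely in UTP-A, from 5.75 TPM for UTP10 to 33.95 for UTP4. They did so too in UTP-C, with 14.55 for UTP22 and 57.95 for RRP7. In UTP-B (11.5 to 24.4 TPM) and the exosome (19.9 to 51.5) the RPF spread was little wider than that of RNA. The lowest RPF level was that of UTP20, outside these complexes, at 3.79 TPM.

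**Figure D2:**
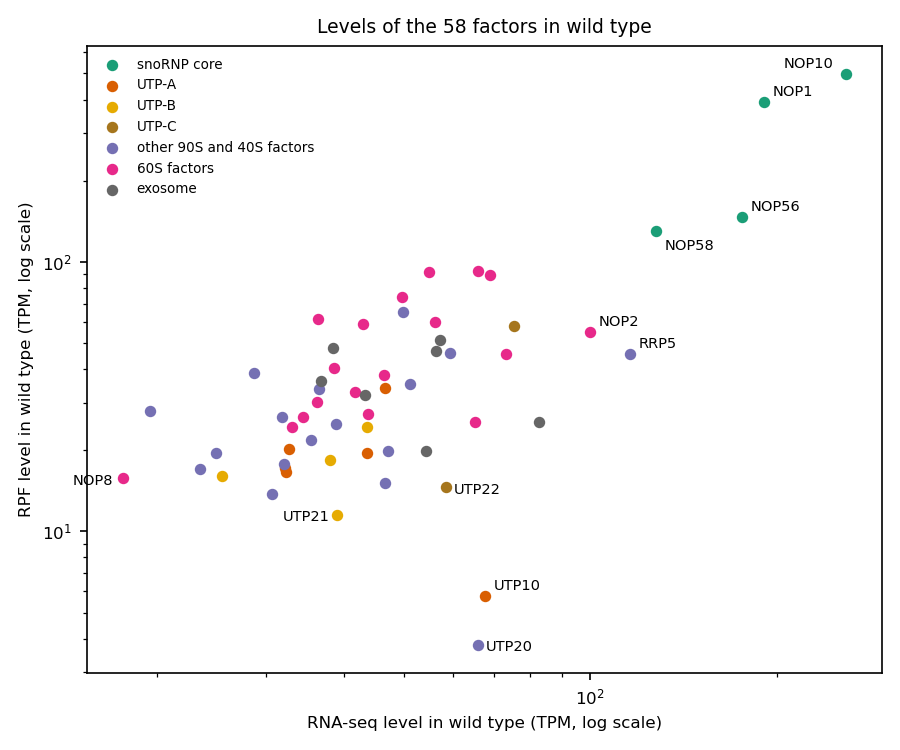
RNA-seq level (x) against RPF level (y) of the 58 factors in the wild-type libraries, both in TPM on log scales and coloured by role. The snoRNP core proteins NOP10, NOP1, NOP56 and NOP58 lie at the upper right, and UTP20 and UTP10 far below factors of like RNA level.

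Footprints per RNA, the RPF TPM over the RNA TPM relative to the median of all genes past the minimum, separated the factors by size. UTP20, a long helical-repeat protein of the 90S particle, was covered by 3127 RNA-seq and 83 RPF reads in the wild type, a log2 value of −3.55 (95% counting interval −3.88 to −3.24) that only 0.268% of genes reached. UTP10, a UTP-A subunit of the same kind, had 2278 and 89 reads and a value of −2.99 (−3.31 to −2.69). Next were UTP22 (−1.44), UTP21 of UTP-B (−1.19) and the exosome subunit RRP42 (−1.14). The highest values were those of NOP1 (1.60), NOP10 (1.51), RRP17 (1.32), the 60S factors NSA2 (1.30) and NOP13 (1.14). UTP20 stayed between −3.62 and −3.20 in the 3 mutants, and UTP10 between −3.18 and −2.33, with the highest value in pex19delta.

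By role, the median wild-type value was 1.05 for the snoRNP core, 0.31 for the 60S factors, 0.29 for the exosome, −0.10 for the other 90S and 40S factors, −0.27 for UTP-B and −0.37 for UTP-A. Of the 15 UTP genes past the minimum, 12 lay below the median gene, and 3 of the 15 NOP genes did. Coding length moved with these values: across the 53 factors Spearman's rho was −0.764, and across 3733 genes it was −0.73. These points share 2 libraries and are genes, not replicates. Factors of like length could still differ, and no correlation with length was computed within the longest genes. RRP5 (5190 nt) and UTP10 (5310 nt) are of nearly equal length, yet RRP5, with 3814 RNA-seq reads and 690 footprints in wild type, stood at −0.78. RRP5 had 4.47-fold more footprints per RNA than UTP10 in msp1delta, 2.31-fold in pex19delta and 3.67-fold in the double mutant, against 4.63-fold in wild type. Among the 60 genes of at least 5000 nt, UTP20 ranked 9 and UTP10 14 from the lowest, and RRP5 ranked 57. Codon adaptation, measured against the codons of ribosomal protein genes, was highest in NOP1 (0.566), NOP58 (0.466), NOP56 (0.452) and NOP10 (0.436), with a median of 0.234 in the 53 factors against 0.208 in all genes. Its rho with footprints per RNA was 0.24 in the factors and 0.358 in all genes.

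**Figure D3:**
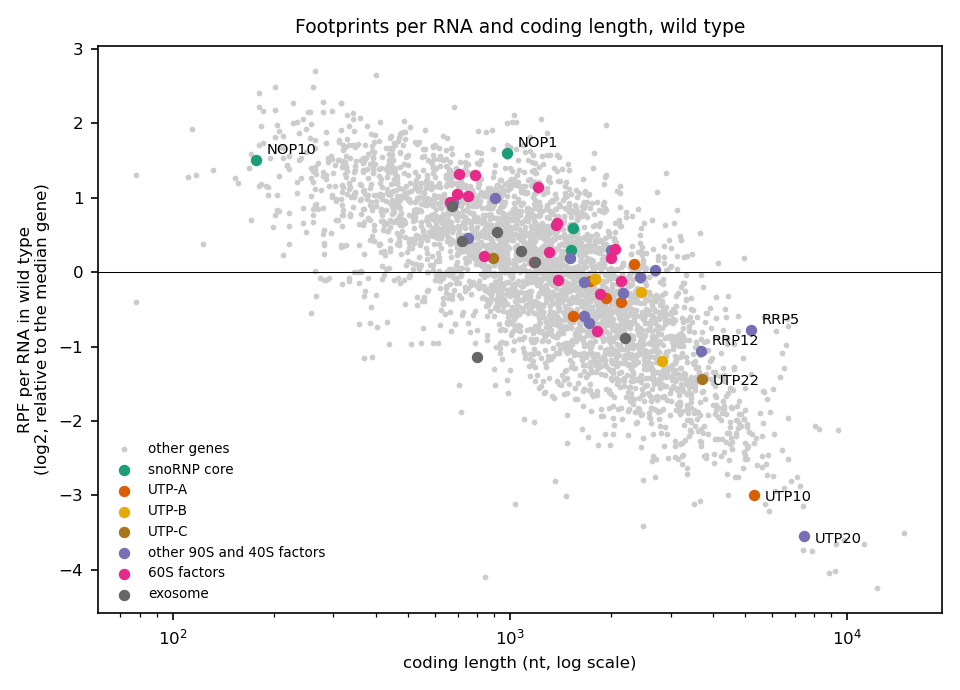
Footprints per RNA in wild type (log2, relative to the median gene; y) against coding length (nt, log scale; x) for all genes past the minimum (grey) and the factors (coloured by role). UTP20 (−3.55) and UTP10 (−2.99) lie at the low end of the long genes and RRP5 (−0.78) near the top of them.

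Set against wild type, the median of the factors was slightly lower in every mutant, and by more in RPF than in RNA-seq in both single mutants. In RNA-seq of pex19delta the factors stood close to all genes. In msp1delta 34 of 53 were lower in RNA-seq (50.5% of all genes were) and 36 in RPF (48.9%), and 24 in both (27.9%), with median log2 ratios of −0.06 and −0.11. In pex19delta 28 were lower in RNA-seq (48.8%) and 38 in RPF (49%), and 22 in both (25.9%), with medians of −0.02 and −0.17. In the double mutant 32 were lower in RNA-seq (52.3%) and 37 in RPF (48.3%), and 21 in both (28.5%), with medians of −0.13 and −0.13. The medians of all genes lay between −0.01 and 0.01 in these 6 comparisons. With the deposited TPM in place of scaled counts the msp1delta RPF median became 0.03 and the pex19delta RNA-seq median 0.08, while the distance from the median of all genes stayed at −0.13 and −0.03. The 3 comparisons share the wild-type libraries, so they are not independent of each other.

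Few factors were far from wild type. On scaled counts no factor was at least 1.5-fold lower, or higher, in both assays of any mutant; of all genes 0.187% were lower and 0.348% higher in both in msp1delta, 0.482% each way in pex19delta, and 0.348% and 0.134% in the double mutant. With library totals or rescaled TPM 1 factor, RRP36, passed in both assays of pex19delta, where its RNA-seq ratio became −0.60 or −0.61 in place of −0.55. In RNA-seq msp1delta had no factor past 1.5-fold (0.91% of all genes were lower and 0.883% higher). In its RPF library 10 factors were at least 1.5-fold lower (8.3% of all genes) and none was higher (10.1%). With the deposited TPM values that comparison gave 5 lower and 4 higher, so the count and its one-sidedness depend on the scale. The median of all genes moved by 0.146 on that scale too, and the shares of all genes past 1.5-fold on it are not given here. Relative to the median of all genes, that of the factors was −0.126 with deposited TPM and −0.124 with scaled counts. In pex19delta 3 factors were lower and 3 higher in RNA-seq (5.41% and 3.75%), and 2 lower and 1 higher in RPF (1.87% and 2.92%). In the double mutant 1 was lower and 1 higher in RNA-seq (1.39% and 0.883%), and 1 lower and none higher in RPF (1.34% and 1.79%).

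**Figure D4:**
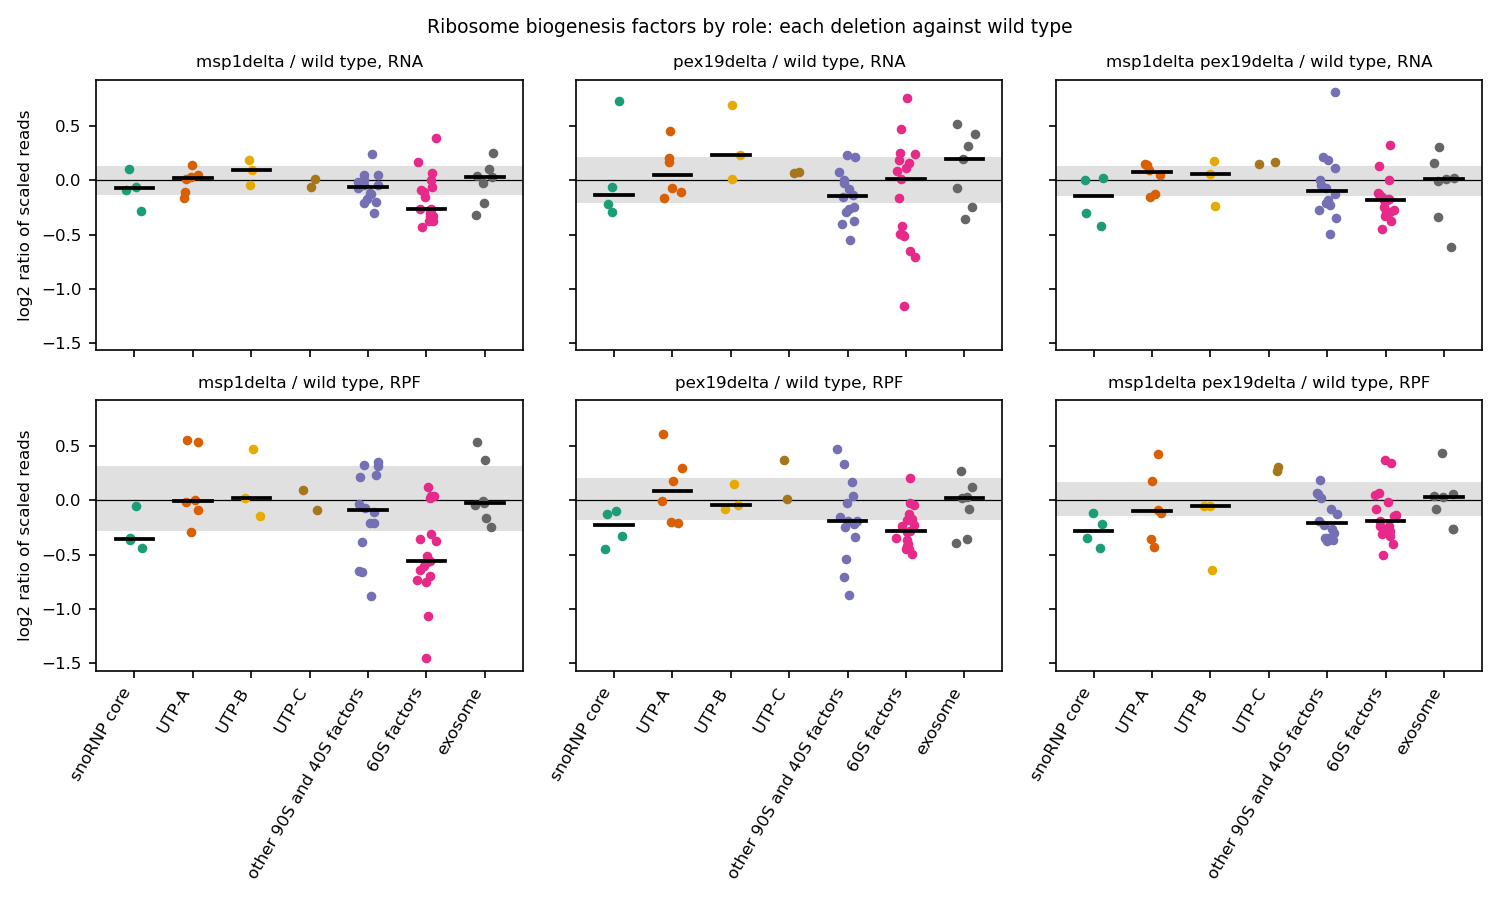
Log2 ratio to wild type of the 53 factors past the count minimum in RNA-seq (upper row) and RPF (lower row), by role; each point is a gene, black lines are medians of roles with more than 2 genes, and the grey band runs from the lower to the upper quartile of all genes. The 60S factors sit lowest in the RPF library of msp1delta, with a median of −0.56.

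The 60S factors stood lowest among the larger roles in msp1delta. Of 17, 14 were lower than wild type in RNA-seq, with a median of −0.26, and 13 in RPF, with a median of −0.56; 7 of the 10 factors at least 1.5-fold lower in RPF were 60S factors. The counting interval lay below 0 for 8 of the 17 in RNA-seq (21.6% of all genes) and for 10 in RPF (21.6%). It lay above 0 for 1, NSA2, in RNA-seq (20.9% of all genes) and for none in RPF (21.7%). NOP53, which brings the exosome to the large-subunit precursor, had 242 RNA-seq reads in msp1delta, 327 in pex19delta and 247 in the double mutant, against 325 in wild type. Its RPF reads were 39, 133 and 119 in the 3 mutants in the same order, against 157 in wild type. msp1delta thus had the fewest reads of both kinds, with ratios of −0.38 (−0.63 to −0.14) and −1.07 (−1.63 to −0.57).

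RRP15, a nucleolar factor of early 60S particles, was low in 1 library alone. It had 196 RNA-seq reads in msp1delta against 193 in wild type, a ratio of 0.07 (−0.23 to 0.36). Its RPF reads were 23 in msp1delta, 113 in pex19delta and 79 in the double mutant, against 122 in wild type. The RPF ratio of msp1delta, −1.45 (−2.19 to −0.83), was the lowest of any factor in any comparison with wild type. Those of pex19delta and of the double mutant were −0.22 and −0.31, with intervals that included 0. RRP15 is also the only factor with another as its annotated neighbour, the 40S factor NOC4, which lies 689 nt away on chromosome XVI and points toward it. NOC4 had 43 RPF reads in msp1delta against 65 in wild type, a ratio of 0.33 (−0.26 to 0.91) once scaled to the depths of the libraries.

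RRP14, a factor of both subunits, had ratios of −0.43 (−0.66 to −0.20) in RNA-seq and −0.73 (−1.26 to −0.24) in RPF in msp1delta. NOP12, an RNA-binding protein of early 60S particles, had −0.33 (−0.53 to −0.13) and −0.70 (−1.09 to −0.32). RRP8, a methyltransferase of the large rRNA, had −0.26 (−0.55 to 0.02) and −0.75 (−1.48 to −0.10). NOP4 and NOP13, both RNA-binding 60S factors, were at −0.64 and −0.61 in RPF, with RNA-seq ratios of −0.15 and 0.00. NOC2 and NOC3, which act together in the maturation and export of 60S particles, were at −0.52 and −0.56 in RPF. Not all members moved this way. NOP2 was lower in RNA-seq, at −0.33 (−0.45 to −0.20), with 893 reads against 1155 in wild type, but stood at 0.02 (−0.27 to 0.31) in RPF. NOP15, NOP16 and RRP1 also lay between 0.04 and 0.12 in RPF.

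In pex19delta the 60S factors had no common direction in RNA-seq, where 8 of 17 were lower, but 16 of 17 were lower in RPF, with a median of −0.28. RRP1, which acts in the processing of the large-subunit precursor, was the exception at 0.20 (−0.24 to 0.66). The counting interval lay below 0 for 8 of the 17 in RNA-seq (28.9% of all genes) and above 0 for 4 (32.1%). In RPF it lay below 0 for 7 (15.3%) and above 0 for none (15.7%). RRP8 had 192 RNA-seq reads in msp1delta, 90 in pex19delta and 200 in the double mutant, against 238 in wild type. Its pex19delta ratio of −1.16 (−1.53 to −0.81) was the lowest RNA-seq ratio among the factors, and the RPF ratio was −0.49, with 62 reads against 81 in wild type. NOP13 was at −0.71 (−0.97 to −0.46) in RNA-seq and −0.23 in RPF, and RRP1 at −0.65 (−0.998 to −0.32) in RNA-seq. NOC2 had 584 RNA-seq reads against 975 in wild type, and was lower in both assays, at −0.50 (−0.65 to −0.35) and −0.45 (−0.71 to −0.19). NSA1, another 60S factor, was at −0.51 (−0.76 to −0.27) and −0.28 (−0.70 to 0.13).

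NOP4 went the other way in RNA-seq alone. It had 405 reads in msp1delta, 666 in pex19delta and 467 in the double mutant, against 464 in wild type, so that the pex19delta library stood apart at 0.76 (0.59 to 0.93). Its RPF reads in pex19delta were 150, against 179 in wild type, a ratio of −0.37 (−0.69 to −0.05). In the double mutant 15 of the 17 60S factors were lower in RNA-seq and 13 in RPF, with medians of −0.18 and −0.19. The counting interval lay below 0 for 7 in RNA-seq (23.3% of all genes) and for 2 in RPF (10.4%). It lay above 0 for RRP17 in RNA-seq (20.1%) and for NOP16 in RPF (10.4%), 1 gene each. RRP14 was at −0.45 (−0.69 to −0.22) and −0.24, and NOP2 at −0.29 (−0.42 to −0.17) and −0.32 (−0.60 to −0.06). NOP16, a 60S factor, was lower in RNA-seq, at −0.37 (−0.65 to −0.10), and higher in RPF, at 0.35 (0.04 to 0.66).

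Depth and length moved with the RPF values of msp1delta. That library had the fewest reads, and the scaled median absolute deviation of its ratios was 0.43 over all genes, against 0.188 in the RNA-seq comparison. Its RPF ratio had a Spearman's rho with coding length of 0.312 over all genes and of 0.24 over the 53 factors. With the running median over coding length subtracted, the 60S median was −0.65 relative to all genes, and −0.57 without that step. In the same comparison the medians of the cytosolic ribosomal protein genes were −0.21 for RNA-seq and −0.50 for RPF. The 43 measured 60S factors outside the name rule had medians of −0.14 and −0.18. The pre-60S factors MAK16 (−0.65 and −0.81) and MRT4 (−0.41 and −0.49) were named from the low end of that list. Their place below its medians follows from that choice. The part of depth, length and a shared shift with ribosomal protein genes in the 60S values was not tested.

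On scaled counts the 4 snoRNP core proteins were lower than wild type in RPF in all 3 mutants. Their medians were −0.36, −0.23 and −0.28 in msp1delta, pex19delta and the double mutant (48.9%, 49% and 48.3% of all genes were lower). These comparisons share 1 wild-type RPF library. NOP1 had 444, 924 and 793 RPF reads in the 3 mutants in that order, against 1074 in wild type. Its ratios were −0.35 (−0.51 to −0.18), −0.33 (−0.46 to −0.20) and −0.12 (−0.25 to 0.01). In RNA-seq NOP1 was lowest in the double mutant, at −0.42 (−0.56 to −0.29). NOP56 was lower in RNA-seq by about the same amount in each mutant, between −0.30 and −0.29, and in RPF it was at −0.37, −0.09 and −0.34. NOP58 lay between −0.06 and 0.00 in RNA-seq and between −0.22 and −0.05 in RPF. In msp1delta its RPF interval ran from −0.26 to 0.16, and its deposited RPF TPM was 139.1, above the 130.29 of wild type. NOP10 had 219, 296 and 196 RNA-seq reads, against 210 in wild type, and 72, 147 and 110 RPF reads, against 186 in wild type. It was higher in RNA-seq in pex19delta alone, at 0.73 (0.47 to 1.00), and lower in RPF in all 3, between −0.45 and −0.44. Its footprints per RNA changed most of all factors in pex19delta, by −1.18 on the log2 scale.

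The UTP-A, UTP-B and UTP-C subunits had role medians between −0.10 and 0.29 over the 3 mutants and both assays. The value of 0.29 was that of UTP-C in RPF of the double mutant. Only 3 UTP-B and 2 UTP-C genes were past the minimum. UTP8, a UTP-A subunit that also acts in tRNA export, was at 0.14 in RNA-seq and 0.55 (0.12 to 1.00) in RPF in msp1delta. UTP15 of UTP-A was at −0.11 in RNA-seq and 0.54 (0.06 to 1.03) in RPF there. UTP10 had 44 RPF reads in msp1delta, 148 in pex19delta and 81 in the double mutant, against 89 in wild type, and stood apart in pex19delta at 0.61 (0.23 to 1.02). Its RNA-seq ratio there was −0.07 (−0.16 to 0.02). UTP5 of UTP-A was at 0.46 (0.26 to 0.66) and 0.30 (−0.09 to 0.70) in pex19delta, and at −0.16 (−0.38 to 0.06) and 0.43 (0.02 to 0.85) in the double mutant.

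UTP18 of UTP-B differed between the strains more than any other UTP-B subunit. It had 311 RNA-seq reads in msp1delta, 387 in pex19delta and 269 in the double mutant, against 282 in wild type. Its RPF reads were 60, 86 and 42 in the same order, against 82 in wild type. It was high in RNA-seq of pex19delta, at 0.69 (0.47 to 0.92), and low in RPF of the double mutant, at −0.64 (−1.22 to −0.09). UTP22, the partner of RRP7 in UTP-C, was at 0.07 and 0.38 (0.08 to 0.68) in pex19delta and at 0.17 (0.06 to 0.28) and 0.27 (−0.06 to 0.60) in the double mutant. RRP7 lay between −0.09 and 0.30 throughout. UTP6 was under the minimum, with 25, 54 and 40 RPF reads in the mutants, against 69 in wild type.

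Among the other 90S and 40S factors the medians were −0.06 and −0.09 in msp1delta, −0.14 and −0.19 in pex19delta and −0.10 and −0.21 in the double mutant, in RNA-seq and RPF. UTP14, which activates the helicase that releases the snoRNA of the 90S particle, was lower in RPF in all 3. It had 92, 204 and 174 RPF reads in msp1delta, pex19delta and the double mutant, against 275 in wild type, with ratios of −0.65 (−1.01 to −0.31), −0.54 (−0.81 to −0.28) and −0.34 (−0.63 to −0.06). In RNA-seq it was at −0.21, −0.08 and −0.50 (−0.65 to −0.34). RRP5 had 278, 591 and 427 RPF reads, against 690 in wild type, and ratios of −0.38 (−0.59 to −0.18), −0.34 (−0.50 to −0.18) and −0.37 (−0.55 to −0.20), so its RPF level stood about equally below wild type in the 3 strains. In RNA-seq RRP5 was at −0.20, −0.02 and −0.35.

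RRP36, a 90S factor, was the least steady of this group. It had 139 RNA-seq reads in msp1delta, 90 in pex19delta and 252 in the double mutant, against 156 in wild type, so that the pex19delta library was the lowest and the double mutant the highest. The ratios were −0.12 (−0.46 to 0.22), −0.55 (−0.95 to −0.17) and 0.81 (0.52 to 1.11). Its RPF reads were 32, 57 and 63, against 97 in wild type, and all 3 ratios were below 0, at −0.66 (−1.30 to −0.08), −0.87 (−1.38 to −0.39) and −0.30 (−0.79 to 0.17). NOP6, an RNA-binding protein of early 40S assembly, had 34, 79 and 91 RPF reads, against 120 in wild type. It was lower in RPF in msp1delta, at −0.88 (−1.49 to −0.33), and in pex19delta, at −0.71 (−1.15 to −0.30), and stood at −0.08 (−0.49 to 0.32) in the double mutant. Its RNA-seq ratios lay between −0.21 and 0.00. RRP9, a protein of the snoRNP that directs cleavage of the precursor, was at 0.08 and 0.48 (0.10 to 0.86) in pex19delta. The helicase RRP3 was at −0.40 (−0.60 to −0.21) in RNA-seq there and at 0.11 and 0.18 in the double mutant. UTP7 was at 0.24 (0.03 to 0.45) and 0.31 (−0.15 to 0.77) in msp1delta.

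**Figure D5:**
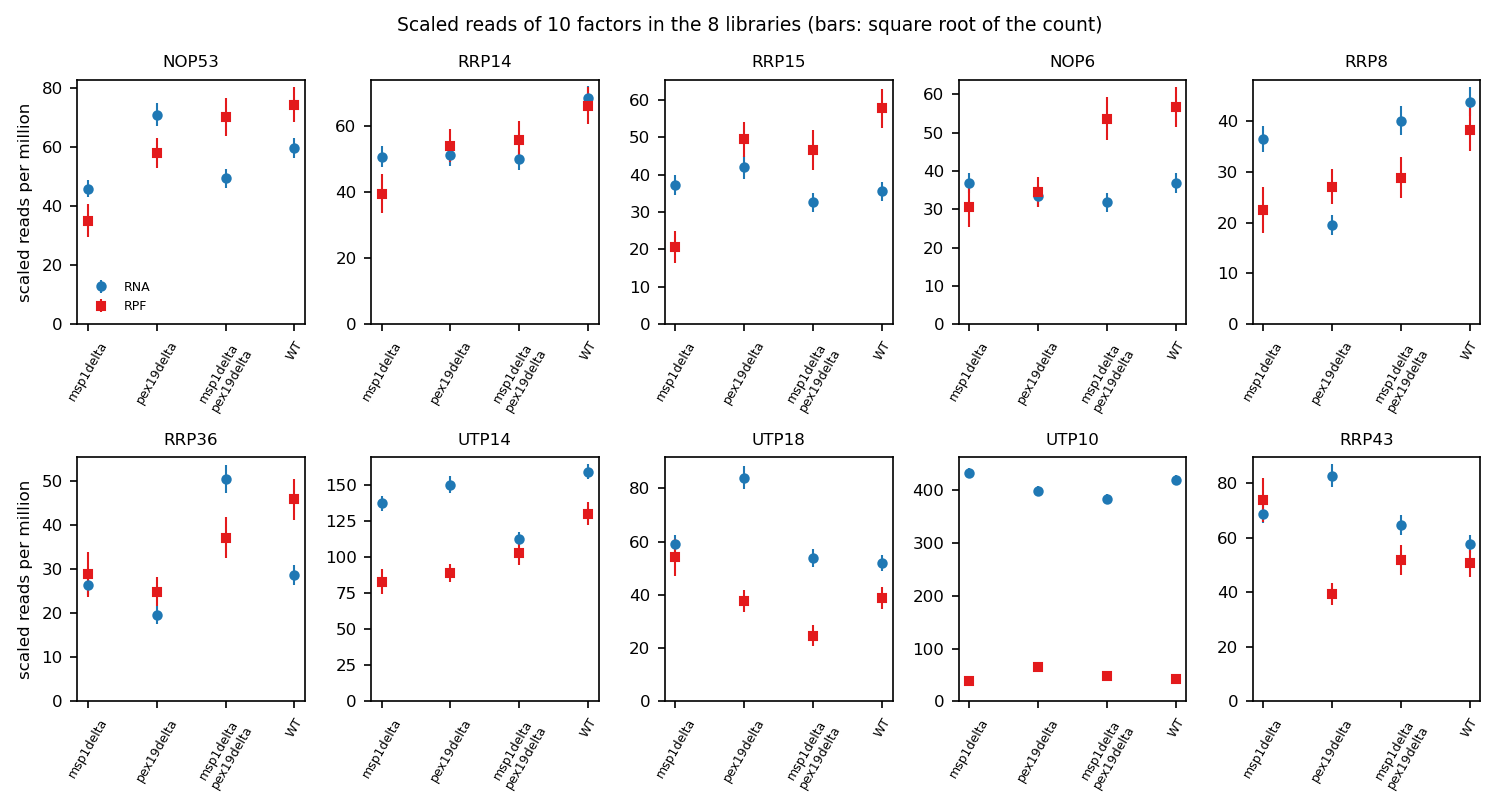
Reads of 10 factors, scaled to equal depth and given per 1e6 reads, in the RNA-seq (blue circles) and RPF (red squares) library of msp1delta, pex19delta, the double mutant and wild type; each point is 1 library and bars are the square root of the read count, on the same scale. RRP15 is low in the msp1delta RPF library (23 reads), RRP8 in the pex19delta RNA-seq library (90), and RRP36 is high in the RNA-seq library of the double mutant (252).

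The 7 exosome subunits had medians of 0.03 and −0.02 in msp1delta, 0.20 and 0.02 in pex19delta, and 0.01 and 0.03 in the double mutant. RRP43, a ring subunit, had 363, 381 and 323 RNA-seq reads, against 314 in wild type, and was higher in both assays of msp1delta, at 0.25 (0.03 to 0.48) and 0.54 (0.11 to 0.97). In pex19delta it was higher in RNA-seq, at 0.52 (0.30 to 0.74), and at −0.36 (−0.78 to 0.05) in RPF. RRP42, another ring subunit, was at −0.62 (−0.86 to −0.38) in RNA-seq of the double mutant, with 237 reads against 396 in wild type, while its RPF ratio was 0.43 (−0.11 to 0.99), with 61 reads against 56. RRP4, which forms the cap of the ring with RRP40 and a further subunit, was at 0.42 (0.22 to 0.63) in RNA-seq of pex19delta and at 0.30 (0.10 to 0.51) in that of the double mutant. RRP6, the nuclear exonuclease, was at 0.10 and 0.37 (−0.04 to 0.78) in msp1delta and at −0.36 (−0.53 to −0.19) in RNA-seq of pex19delta.

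Changes in footprints per RNA were taken as the RPF log2 ratio less the RNA-seq log2 ratio, both from scaled counts. The median change of the 53 factors was −0.08 in msp1delta, −0.10 in pex19delta and 0.01 in the double mutant, against 0.01, 0.02 and 0.02 for all genes. In msp1delta 5 factors were at least 1.5-fold lower (7.95% of all genes) and 1 higher (10.5%), led by RRP15 at −1.52, NOP6 at −0.88 and NSA2 at −0.75, with UTP15 at 0.65 on the other side. In pex19delta 7 were lower (6.66%) and 4 higher (8.35%), with NOP10 at −1.18, NOP4 at −1.13 and RRP43 at −0.88 against RRP1 at 0.86, UTP10 at 0.68 and RRP8 at 0.66. In the double mutant 3 were lower (2.78%) and 3 higher (4.15%), with RRP36 at −1.11, UTP18 at −0.69 and NOP4 at −0.64 against RRP42 at 1.05, NOP16 at 0.72 and UTP5 at 0.59. Taken instead from the TPM ratios used above for wild type, 8 factors were lower and 1 higher in msp1delta (10.2% and 8.96%), 8 and 4 in pex19delta (7.6% and 7.81%), and 6 and 2 in the double mutant (3.59% and 3.29%). On that scale RRP15 was at −1.60 in msp1delta and NOP10 at −1.22 in pex19delta, and UTP5, at 0.55 in the double mutant, no longer passed. In RRP36 and RRP42 of the double mutant the RNA-seq and RPF ratios lay on opposite sides of 0, whereas in RRP15 and NOP6 of msp1delta RNA-seq lay within 0.07 of wild type.

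Loss of the second gene was read from the double mutant against each single mutant. Against msp1delta the median log2 ratio of the 53 factors was −0.02 in RNA-seq and 0.10 in RPF, and 15 of the 17 60S factors were higher in RPF (50.1% of all genes were), with a median of 0.33. The msp1delta RPF library is the one in which the 60S factors stood low against wild type. The rise of the 60S factors is therefore not independent of that result. RRP15 was at 1.15 (0.48 to 1.91) and NOP53 at 0.99 (0.46 to 1.56) in RPF, both low in the shared msp1delta library. UTP18 was at −1.11 (−1.73 to −0.53) in RPF. RRP36 was at 0.93 (0.63 to 1.24) in RNA-seq and 0.36 (−0.27 to 1.03) in RPF. Against pex19delta the medians were −0.06 and 0.02. There RRP36 was at 1.36 (1.02 to 1.73) and 0.57 (0.04 to 1.12), and RRP8 at 1.03 (0.67 to 1.41) in RNA-seq and 0.09 (−0.48 to 0.66) in RPF. UTP18 was at least 1.5-fold lower in both assays, at −0.64 (−0.87 to −0.41) and −0.59 (−1.17 to −0.05), and was the only factor so (0.723% of all genes were).

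Departure from additivity, taken as the double mutant plus wild type less the 2 single mutants on the log2 scale, had a median over the 53 factors of 0.03 in RNA-seq and 0.18 in RPF. It carries the counting error of 4 libraries. RRP36 had 1.48 and 1.23 and RRP8 1.29 and 0.84, so that in both assays the double mutant lay above the sum of the single ones. UTP18 had −0.83 and −1.06, below that sum in both. NOP6 had −0.07 in RNA-seq and 1.51 in RPF. In RPF 12 factors were past 1.5-fold on the positive side (14.1% of all genes) and 6 on the negative side (16.6%), of which 9 and 0 were 60S factors. The RPF value subtracts the msp1delta library, in which the 60S factors stood low. The count of 60S factors is therefore not independent of that result.

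Ratios to wild type were also read by promoter element. The 28 measured factors with both stood at −0.05 and −0.13 in msp1delta, −0.06 and −0.17 in pex19delta and −0.10 and −0.19 in the double mutant, in RNA-seq and RPF. The 20 measured factors with RRPE alone stood at −0.06 and −0.29, −0.05 and −0.16, and −0.15 and −0.10 in the same order. In RPF the median of the factors with RRPE alone was thus the lower in msp1delta and that of those with both the lower in the double mutant. These classes differ in role: all 4 UTP-B and 5 of the 6 UTP-A genes held both elements, while RRP15 and NOP53 held RRPE alone. Whether the elements have a part in these medians was not tested. The 3 measured factors with PAC alone and the 2 with neither are too few to set beside them.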

How the data were processed

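RNA-seq and RPF libraries of 4 genotypes were analysed, 1 library per genotype and assay. Per the labels' protocols, cells were harvested after 16 h at an optical density of 2 to 2.5, and fragments of 19 to 40 nt (RNA-seq) or 19 to 33 nt (RPF) were sequenced. Per the submitters' processing notes, cutadapt 1.8, STAR 2.5 and the genome build R64 (sacCer3) were used. The tool that counted reads and its strand setting are not given in the sources used here. Read counts deposited by the authors were the input of all ratios. The authors' deposited TPM values gave levels and footprints per RNA; they sum to 813997.5 to 911427.6 over the listed genes in RNA-seq and 992524.1 to 997038.9 in RPF. The authors' deposited RPM and RPKM columns, found for RNA-seq of the double mutant, were used only to read the gene lengths behind them, which were 50 nt below the coding length for all 58 factors. 2 blank lines at the end of each file of the double mutant were left out. No factor had a near-identical copy (blastn 2.17.0, at least 90% identity over 100 nt).

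TMM factors (edgeR 4.0.16, R 4.3.3) were computed per assay from genes averaging 50 counts or more. A pseudocount of 1 read, in proportion to depth, entered each ratio, and a call was a change of at least 1.5-fold (0.585 on the log2 scale). Intervals are exact conditional binomial (Clopper-Pearson) 95% intervals (scipy 1.17.1); reads carry no molecular identifiers and are not independent molecules, hence the intervals hold counting error alone. The scaling and the intervals were tested on simulated data. Footprints per RNA are TPM ratios relative to the median of the 3737 genes past the minimum; their changes against wild type are differences of scaled-count ratios, with TPM changes as an alternative added after seeing the data. Motifs were read from the R64 genome because no promoter table was used. The members, roles and lists were chosen with earlier results of these data known. The genes named are the extremes of each role by wild-type level, of each comparison by the mean of both assays, and of footprints per RNA, factors past 1.5-fold, those under the minimum, and up to 2 per direction of each further pathway list. Alternatives were other scalings (library totals, TMM over all listed genes, DESeq2 1.42.0 size factors, TMM without ribosomal protein genes), pseudocounts of 0.1 and 5 reads, no minimum and a minimum of 200, deposited TPM as listed or rescaled, and subtraction of the trend with coding length.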

Additional observations from a re-analysis of the deposited data

Results flagged for a closer look

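NOP6, an RNA-binding factor of the small subunit, had RPF ratios of opposite sign for the same deletion in the 2 backgrounds. Loss of PEX19 went with a log2 ratio of 0.80 (0.23 to 1.42) in the msp1delta background and of −0.71 (−1.15 to −0.30) in the wild-type background. Loss of MSP1 went with 0.63 (0.18 to 1.09) in the pex19delta background and −0.88 (−1.49 to −0.33) in the wild-type background. Both pairs rest on the same 4 libraries, with 34, 79 and 91 RPF reads in msp1delta, pex19delta and the double mutant and 120 in wild type, and the difference between backgrounds was not tested. Opposite signs, with at least 1.5-fold each way, were found for 1.07% and 1.36% of the 3737 genes, and for 1 of the 53 factors each. In RNA-seq no factor was found this way (0.321% and 0.134% of genes).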

How the results depend on the processing

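No paired analysis was possible because each genotype has 1 library per assay, so the replicate numbers pair nothing; for the same reason no library could be left out. The cause of each change given here was not tested unless named. Library totals put the pex19delta RNA-seq median of the 60S factors at −0.0319, the factors at least 1.5-fold lower in both assays of pex19delta at 1, and the RNA-seq median of the double mutant against msp1delta at 0.00283. TMM over all listed genes, which moved the median of all genes by −0.199 in the msp1delta RPF comparison, gave a median change in footprints per RNA of −0.0518 in the double mutant and an RPF median of −0.0506 against pex19delta. Without a minimum, 1 factor was at least 1.5-fold higher in msp1delta RNA-seq and 2 lower in RPF of the double mutant. A minimum of 200 counts leaves 5 factors. In msp1delta 5 and 4 of them were lower (RNA-seq and RPF, 4 in both). The numbers were 5 and 5 in pex19delta (5 in both) and 4 and 5 in the double mutant (4 in both). The shares of all genes past that minimum that were lower are not given here. Relative to the median of those genes, the medians of the 5 factors were −0.197 and −0.278, −0.211 and −0.32, and −0.271 and −0.308 in the same order. None of the 5 was past 1.5-fold in either assay, so those counts were 0, and the role values became those of single genes: NOP2, the 1 60S factor left, with 0.0243 in msp1delta RPF and −0.17 in pex19delta RNA-seq, and RRP5, the 1 other 90S and 40S factor left, with −0.35 in RNA-seq of the double mutant. Deposited TPM shifted the median of all genes by 0.146 in msp1delta RPF and 0.102 in pex19delta RNA-seq; the factors' medians became 0.0346 and 0.0783, that of the other 90S and 40S factors in msp1delta RPF 0.0544, with 5 factors at least 1.5-fold lower and 4 higher there, and 0 lower in RNA-seq of the double mutant. TPM rescaled to a common sum, chosen after seeing the data, gave 0.0403, 0.06, 5 and 4 in msp1delta RPF (shift 0.151), −0.047 for the 60S factors in pex19delta RNA-seq and 1 factor lower in both assays of that mutant. With the length trend subtracted, the 60S median in pex19delta RNA-seq was −0.0334, and no factor (0) was 1.5-fold higher in pex19delta RPF or lower in RNA-seq of the double mutant. Footprints per RNA from TPM, also chosen after seeing the data, were at least 1.5-fold lower for 8 factors in msp1delta and 6 in the double mutant. On the gene's strand alone 17 promoters held both elements. DESeq2 size factors, TMM without ribosomal protein genes and both other pseudocounts left all group results within these limits. Of 318 single-gene ratios per setting (30 with the minimum of 200) none past 1.5-fold changed sign. Shifts as small as those given here could hardly turn such a ratio. Among all 318 ratios, 30 changed sign with deposited TPM, 23 with rescaled TPM and 16 with TMM over all listed genes. Every other setting changed fewer. Depth limits the RPF values: 23 to 44 reads stand behind several msp1delta ratios.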

Other observations

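Other genes of the pathway were listed by role and not by name. The 38 measured of 42 further 90S and 40S factors had median log2 ratios of −0.10 in RNA-seq and −0.06 in RPF in msp1delta, −0.11 and −0.07 in pex19delta and −0.02 and −0.12 in the double mutant. FCF2, a 90S factor, was at −0.40 and −1.27 in msp1delta, and MPP10, a component of the 90S particle, at −0.19 and 0.96. ENP2 was at −1.10 and −0.21 in the double mutant. The 43 measured of 53 further 60S factors had medians of −0.14 and −0.18 in msp1delta, against −0.26 and −0.56 for the 60S factors of the name rule. They stood at −0.14 and −0.20 in pex19delta, where 37 were lower in RPF, and at −0.15 and −0.15 in the double mutant. RSA3, a 60S factor, was at 1.06 and 0.35 in the double mutant, and EBP2 at −0.50 and −0.47.

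The 10 measured of 18 genes of RNA polymerase I and its factors, which transcribe the rRNA precursor, had medians of −0.15 and −0.21 in msp1delta, 0.06 and −0.11 in pex19delta and −0.03 and −0.16 in the double mutant. The polymerase subunit RPA34 was at −0.62 and −0.24 in msp1delta, and the initiation factor RRN3 at 0.19 and 0.52. Of 9 measured further snoRNP genes, 7, 8 and 6 were lower in RPF in msp1delta, pex19delta and the double mutant (48.9%, 49% and 48.3% of all genes), and of 8 measured further exosome genes and cofactors 6, 7 and 5 were. DIS3, the catalytic exosome subunit, was at −0.27 and −0.63 in msp1delta. The 6 measured genes listed as regulators had medians of −0.05 and −0.21 in msp1delta, with IFH1 at −0.08 and −0.68 and SFP1 at −0.01 and −0.42. In the double mutant they stood at −0.03 and 0.11.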
